A study of Homo sapiens with 18 samples.

Results

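The poly(I:C) response after ELMO1 knockdown was read from 6 of the 18 RNA sequencing libraries of the study, the 3 of siELMO1 cells at 0 h and the 3 of siELMO1 cells at 24 h, across the 15167 genes tested of 62754 genes in the matrix. EA.hy926 cells are an endothelial line of human origin, made by fusing umbilical vein endothelial cells with cells of a lung carcinoma line. siELMO1 cells received a pool of siRNAs against ELMO1 at 10 nM, were kept overnight in medium low in serum and were harvested either 48 h after transfection, which is the 0 h time, or once they had spent another 24 h in 1 μg/ml of poly(I:C). Mock cells (transfection reagent and no siRNA) and siNT cells (non-targeting siRNA at 10 nM) had the same schedule, with 3 libraries in each of the 6 conditions. Poly(I:C) is made in the laboratory as a mimic of viral double-stranded RNA, and ELMO1 is a scaffold protein that acts with DOCK proteins to activate the GTPase RAC1. The knockdown is transient and in 1 cell line, and every condition shares the line, the reagent and the low serum. No condition was kept for those 24 h without poly(I:C), so the effect of poly(I:C) and that of another day in culture cannot be told apart here.

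Double-stranded RNA is read in endosomes by TLR3, which signals through TICAM1 (TRIF), and in the cytosol by RIG-I (RIGI) and MDA5 (IFIH1), which signal through MAVS. These routes switch on interferon regulatory factors and NF-κB, and the interferon that is made acts back on the cell through JAK kinases and STAT factors to induce antiviral genes. Endothelial cells answer in this way with chemokines, cytokines and adhesion molecules that draw leukocytes, and the same signals can set off programmed cell death.

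ELMO1, the gene that the siRNA targets, was at 0.299, 0.301 and 0.419 CPM (counts scaled to a library size of 1e6, with the size set by the TMM method) in the siELMO1 libraries at 0 h and 0.288, 0.155 and 0.360 CPM at 24 h. Its levels overlapped between the times, and the fitted difference was log2 −0.36 (SE 0.31, adjusted p = 0.36, edgeR). In siNT it was at 2.95 ± 0.339 CPM (SD, n = 3) at 0 h and 3.32 ± 0.307 CPM at 24 h, and in Mock at 3.02 ± 0.0288 and 2.32 ± 0.738 CPM. Every siELMO1 library thus lay below the mean of either control group, at both times. The gene lies at chr7:36852906-37449223 on the minus strand of GRCh38.

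Of 12 endothelial markers 10 passed the filter on low counts, and their summed level over the 12 was 2968 to 3198 CPM at 0 h and 2664 to 3211 CPM at 24 h. Among 12 leukocyte markers CD14, CD3D, CD3E, MS4A1 and TYROBP were at 0 in all 6 libraries, 1 was tested, and the sum was 3.14 to 4.03 CPM at 0 h and 4.98 to 8.50 CPM at 24 h. Of 9 fibroblast and smooth muscle markers DCN, DES and LUM were at 0 throughout, and the sum was 18.8 to 20.5 CPM before and 30.2 to 33.1 CPM after poly(I:C). Among 12 lung epithelial markers CDH1, NKX2-1, SCGB1A1, SFTPA1, SFTPB and SFTPC were at 0 throughout. The sum of this list, nearly all of it from the keratin genes KRT8 and KRT18, was 981 to 1093 CPM at 0 h and 539 to 632 CPM at 24 h.

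The 6 libraries held between 40.4 and 71.1 M estimated counts, and a count of 0 allowed up to 9 counts (3 read pairs at up to 3 estimated counts a pair), or 0.122 to 0.226 CPM. The siELMO1 0 h library of replicate 1 stood apart from its group. Mitochondrially encoded genes took 1.86% of its counts against 4.02% and 3.95% in replicates 2 and 3, and a chi-square of counts over genes with at least 10 counts in the pair gave 70.5 and 78.8 per degree of freedom against replicates 2 and 3 but 10.1 between those. In the Mock and siNT libraries the mitochondrial share was 1.31% to 2.42%, so by this share replicate 1 lay within the control range and replicates 2 and 3 above it. Values without siELMO1 0 h replicate 1 stand beside named calls that were lost and list counts that moved by over 1.5 times. In RNA from whole cultures a lower level can come from fewer cells of a kind or from less RNA per cell, and these cannot be told apart.

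Promoter windows of 6 genes that the results below turn on are printed here, because each holds 1 of 3 short motifs that are known from interferon, NF-κB or cell cycle genes. Each window runs from 250 bases before the RefSeq start of the gene to 50 bases after it, in the direction of the gene, on GRCh38.p14. ISG15 (chr1:1013247-1013546, plus strand) and CXCL10 (chr4:76023448-76023747, minus strand) stand for genes with the core of the interferon-stimulated response element (ISRE), written GAAANNGAA, which interferon regulatory factors and STAT complexes bind. CXCL1 (chr4:73869143-73869442, plus strand) and TNFAIP3 (chr6:137867009-137867308, plus strand) stand for genes with the κB core GGGNNTTTC of NF-κB. MCM2 (chr3:127598161-127598460, plus strand) and CDK1 (chr10:60778081-60778380, plus strand) stand for cell cycle genes with the E2F core TTTNGCGC. Capitals mark the letters that matched on either strand.
ISG15: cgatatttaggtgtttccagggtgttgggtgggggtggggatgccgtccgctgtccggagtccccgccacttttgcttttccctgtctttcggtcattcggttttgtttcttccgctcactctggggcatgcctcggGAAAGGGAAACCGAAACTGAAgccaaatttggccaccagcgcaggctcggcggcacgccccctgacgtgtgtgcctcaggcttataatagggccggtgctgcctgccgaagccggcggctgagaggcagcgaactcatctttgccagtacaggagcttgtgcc
CXCL10: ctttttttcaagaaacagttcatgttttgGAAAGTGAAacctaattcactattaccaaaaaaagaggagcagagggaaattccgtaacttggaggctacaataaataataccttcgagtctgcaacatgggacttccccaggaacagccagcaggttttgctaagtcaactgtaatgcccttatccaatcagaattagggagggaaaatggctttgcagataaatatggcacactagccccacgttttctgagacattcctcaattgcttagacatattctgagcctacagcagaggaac
CXCL1: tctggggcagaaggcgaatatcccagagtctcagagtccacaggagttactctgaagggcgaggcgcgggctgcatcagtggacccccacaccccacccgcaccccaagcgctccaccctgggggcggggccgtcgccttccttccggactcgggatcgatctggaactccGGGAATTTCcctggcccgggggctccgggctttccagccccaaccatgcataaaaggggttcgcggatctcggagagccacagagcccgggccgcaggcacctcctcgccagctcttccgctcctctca
TNFAIP3: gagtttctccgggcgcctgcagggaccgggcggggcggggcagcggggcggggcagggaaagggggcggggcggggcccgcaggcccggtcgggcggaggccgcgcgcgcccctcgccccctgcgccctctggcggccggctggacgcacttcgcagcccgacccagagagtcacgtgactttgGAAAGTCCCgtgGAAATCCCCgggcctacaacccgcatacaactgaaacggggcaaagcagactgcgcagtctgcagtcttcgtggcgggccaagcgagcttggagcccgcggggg
MCM2: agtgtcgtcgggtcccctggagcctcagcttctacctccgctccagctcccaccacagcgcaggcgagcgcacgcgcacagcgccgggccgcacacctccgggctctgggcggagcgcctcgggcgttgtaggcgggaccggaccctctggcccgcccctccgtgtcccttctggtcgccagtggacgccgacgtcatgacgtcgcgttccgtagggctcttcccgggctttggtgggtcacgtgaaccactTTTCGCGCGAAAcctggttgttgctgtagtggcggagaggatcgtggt
CDK1: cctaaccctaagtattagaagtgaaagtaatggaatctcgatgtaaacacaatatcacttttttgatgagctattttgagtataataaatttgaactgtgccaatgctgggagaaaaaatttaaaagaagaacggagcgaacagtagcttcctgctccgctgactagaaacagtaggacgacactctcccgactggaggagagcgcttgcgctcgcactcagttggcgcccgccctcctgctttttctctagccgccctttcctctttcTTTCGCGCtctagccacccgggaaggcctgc

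In ISG15 3 ISRE cores overlapped, the first letters lying 113, 107 and 101 bases before the start (positions −113, −107 and −101), and in CXCL10 there was 1 at −221. The κB core of CXCL1 lay at −79, and the pair in TNFAIP3 at −66 and −54. MCM2 held an E2F core on each strand at 2 and 6 bases past the start, and CDK1 1 at 19. Across 10007 tested protein-coding genes with a window, of 12369 with distinct symbols, the ISRE core was found in 6.74%, the κB core in 4.77% and the E2F core in 3.12%. In the whole table of 27305 windows the shares were 8.29%, 4.73% and 1.83%. A match is a description of letters and says nothing of binding.

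From 0 h to 24 h, 1170 genes rose over 2-fold in siELMO1 cells and 558 fell (7.71% and 3.68% of the 15167 genes, adjusted p under 0.05 by edgeR's quasi-likelihood test). By adjusted p alone 4249 genes were higher (28.0%) and 4073 lower (26.9%), and the median log2 fold change of all genes was 0. The rises reached much further than the falls. Of the genes that rose 48 were at 0 in every 0 h library, so that their folds are lower bounds. With these at their bounds 457 genes rose over 4-fold, 251 over 8-fold and 52 over 64-fold (467, 278 and 94 by fitted values), whereas 60 genes fell over 4-fold and 12 over 8-fold. In 1156 of the 1170 and in 515 of the 558 the 3 libraries of one time did not overlap those of the other. Over all genes 4357 were higher without overlap (28.7%) and 4157 lower (27.4%). The genes that rose comprised 922 of 12386 protein-coding genes and 195 of 1862 lncRNAs, and those that fell 364 protein-coding genes, 96 lncRNAs and 73 of 492 processed pseudogenes. Pseudogenes share sequence with their parent genes, so their counts are uncertain.

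**Figure D1:**
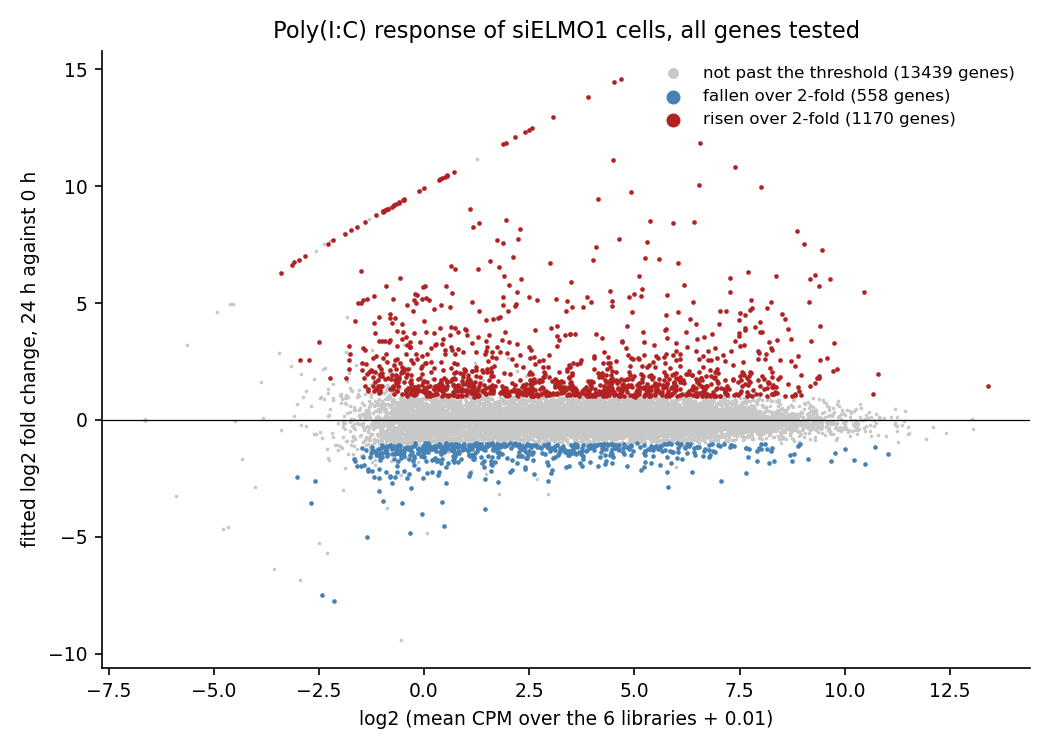
Fitted log2 fold change of each of the 15167 genes tested in siELMO1 cells, 24 h against 0 h, against the log2 of its mean CPM over the 6 libraries plus 0.01. The 1170 genes that rose over 2-fold (red) reach far above the 558 that fell (blue); the diagonal line of points at the upper left is genes with a count of 0 in every 0 h library, whose fitted values are no measured folds.

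The sensors of double-stranded RNA and their adaptors rose as a group: 15 of 17 were higher and none lower, against 28.0% of all genes, with a median log2 fold change of 1.24. MAVS and TRAF6 did not pass the test. TLR3, the endosomal sensor, was at 19.9, 18.9 and 21.1 CPM at 0 h and 152, 143 and 173 CPM at 24 h, a 7.80-fold rise (log2 2.96, SE 0.12, adjusted p = 4.5e-13, edgeR). IFIH1 went from 7.27, 7.08 and 5.71 CPM to 296, 276 and 332 CPM (log2 5.49, SE 0.13, adjusted p = 2.8e-16, edgeR). RIGI went from 76.7, 81.1 and 81.4 to 1223, 1174 and 1486 CPM (log2 4.02, SE 0.12, adjusted p = 1.5e-14, edgeR). For all of these the 24 h libraries lay far above the 0 h libraries. TICAM1, the adaptor of TLR3, rose 2.41-fold (adjusted p = 3.8e-11, edgeR), and ZBP1, a sensor of nucleic acids in the Z form that can start necroptosis, was at 0 in all 3 libraries at 0 h and 2.64, 2.81 and 4.30 CPM at 24 h, at least 18.5-fold higher against 9 counts per library.

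Interferon transcripts themselves were low at 24 h. IFNB1, which encodes interferon β, had 3 counts in all at 0 h and was at 5.81, 5.52 and 11.6 CPM at 24 h, a ratio of 398 (95% counting interval 71.0 to 15742, over read pairs). IFNL1, a type III interferon, was at 0 in every 0 h library and at 2.58, 2.08 and 3.76 CPM at 24 h, at least 15.9-fold higher. Of the 8 interferon and receptor genes tested 6 were higher and none lower. Of the transcription factors, IRF7, which amplifies interferon production, rose 25.2-fold (adjusted p = 2.7e-16, edgeR) and IRF1 7.72-fold (adjusted p = 4.5e-13, edgeR). Across IRF, STAT, JAK and SOCS genes 16 of 25 were higher and 7 lower, beside 28.0% and 26.9% of all genes. The 7 were CISH, SOCS2, SOCS4, SOCS5, SOCS6, SOCS7 and STAT5B (CISH not without siELMO1 0 h replicate 1), while SOCS1, a feedback inhibitor of JAK kinases, rose from 2.12, 2.54 and 1.48 to 11.8, 11.0 and 13.7 CPM (log2 2.58, SE 0.17, adjusted p = 8.9e-10, edgeR). SOCS2 fell from 7.35, 8.79 and 8.13 to 3.97, 3.89 and 3.00 CPM (log2 −1.15, SE 0.12, adjusted p = 1.7e-07, edgeR).

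Interferon-stimulated genes that passed the filter on low counts rose without an exception in the lists, against 28.0% of all genes. They included 14 of 14 IFIT, IFITM, OAS and MX genes (median log2 5.88). Of 41 listed genes of ISG15 conjugation and other interferon-stimulated genes 38 were tested and rose (median 3.72). So did the 6 guanylate-binding proteins tested, of 7 listed, and 19 of 19 genes of MHC class I antigen presentation (median 2.26). IFIT1, which binds viral RNA that lacks host cap marks, was at 6.17, 6.38 and 4.55 CPM at 0 h and 1020.0, 979 and 1137 CPM at 24 h (log2 7.52, SE 0.15, adjusted p = 5.8e-17, edgeR). ISG15, a protein modifier like ubiquitin, went from 11.3, 8.24 and 7.13 to 664, 591 and 683 CPM (log2 6.16, SE 0.16, adjusted p = 1.8e-15, edgeR). OASL, of the oligoadenylate synthetase family, went from 3.89, 3.97 and 2.44 to 856, 818 and 1134 CPM, a 272-fold rise (adjusted p = 5.1e-15, edgeR). The antiviral enzyme RSAD2 (viperin), which CMPK2 overlaps on the opposite strand, was below 1 CPM in every 0 h library and at 495, 458 and 587 CPM at 24 h (log2 9.94, SE 0.27, adjusted p = 2.9e-15, edgeR). MX2, a GTPase that blocks retroviruses, was at 0.259, 0.276 and 0 CPM before and 314, 320.2 and 369 CPM after, and XAF1, a pro-apoptotic gene, at 0.0408, 0.126 and 0 CPM before and 179, 182 and 206 CPM after. IFI6 and B2M, the light chain of MHC class I, had 2 of the 5 largest gains in CPM per kilobase of exon. IFI6 rose from 20.0, 15.9 and 13.7 to 1228, 1101 and 1380.3 CPM and B2M from 313, 315 and 321 to 1269, 1268 and 1551 CPM.

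Guanylate-binding proteins are GTPases that attack the membranes of intracellular pathogens. GBP1 went from 4.12, 4.85 and 4.67 to 285, 284 and 349 CPM (log2 6.08, SE 0.15, adjusted p = 6.4e-16, edgeR). GBP5 was at 0 in every 0 h library and at 41.2, 41.1 and 55.9 CPM at 24 h, at least 262-fold higher. The fitted median of the 6 GBP genes was 7.66, which became 4.87 with the 2 genes at 0 placed at their bound. In antigen presentation HLA-B went from 13.6, 10.9 and 11.5 to 387, 368 and 512 CPM, and TAP1, which pumps peptides into the endoplasmic reticulum, from 28.7, 23.7 and 22.8 to 337, 312 and 349.5 CPM. NLRC5, the transactivator of the class I genes, rose 7.15-fold (adjusted p = 2.6e-12, edgeR). HLA genes share sequence with each other, and PSMB8-AS1 and PSMB9 overlap TAP1 on the other strand, so their counts are less certain than the rest.

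The ISRE core stood in 7 of 8 IFIT, IFITM, OAS and MX promoter windows, in 21 of 33 of the other interferon-stimulated genes (63.6%) and in 9 of 16 of the antigen presentation genes (56.2%), beside 6.74% of all tested genes. Of the genes that rose over 2-fold 18.5% held it, of those that rose over 8-fold by fitted values 36.0% and of those that fell 4.60%. The genes in the lists were chosen for being interferon targets, so their share describes the lists.

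Levels of the chemokines ranged widely. Of 14 listed genes, the CXC chemokines and CX3CL1, 7 passed the filter on low counts and all 7 rose (median log2 6.14). Of 26 listed CC chemokines 7 passed and all 7 rose (median 7.76, or 6.98 with the gene at 0 placed at its bound). A gene near 0 at 0 h could pass that filter only through libraries in which it was higher. These counts and medians therefore favour rises, and 28.0% of all genes rose. CXCL10 and CXCL11, which attract activated T cells, were at 0 in all 3 libraries at 0 h. At 24 h CXCL10 was at 25.5, 23.6 and 40.9 CPM and CXCL11 at 43.9, 41.9 and 67.3 CPM, at least 170.4-fold and 289.8-fold higher. ART3 overlaps both on the opposite strand. CXCL8, the main attractant of neutrophils, was already at 19.4, 18.7 and 15.5 CPM and reached 615, 512 and 641 CPM (log2 5.04, SE 0.12, adjusted p = 5.6e-16, edgeR). CXCL1, which acts on the same receptor, went from 0.572, 0 and 0.320 to 112, 103 and 146 CPM (log2 8.42, SE 0.29, adjusted p = 7.8e-14, edgeR). CXCL2 rose 70.5-fold to 65.2, 58.9 and 79.3 CPM (adjusted p = 2.9e-15, edgeR). CCL2, which draws monocytes, went from 25.3, 30.6 and 28.0 to 402, 402 and 504 CPM (log2 3.97, SE 0.14, adjusted p = 5.7e-14, edgeR). For CCL5 the 0 h libraries were at 0.299, 0.151 and 0.180 CPM and the 24 h libraries at 69.5, 70.2 and 109.9 CPM. CCL20, the ligand of CCR6, rose from 0.191, 0.402 and 0.140 to 43.9, 40.4 and 65.0 CPM (log2 7.76, SE 0.26, adjusted p = 3.9e-14, edgeR). In each of these 8 genes replicate 3 was the highest of the 24 h libraries.

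**Figure D2:**
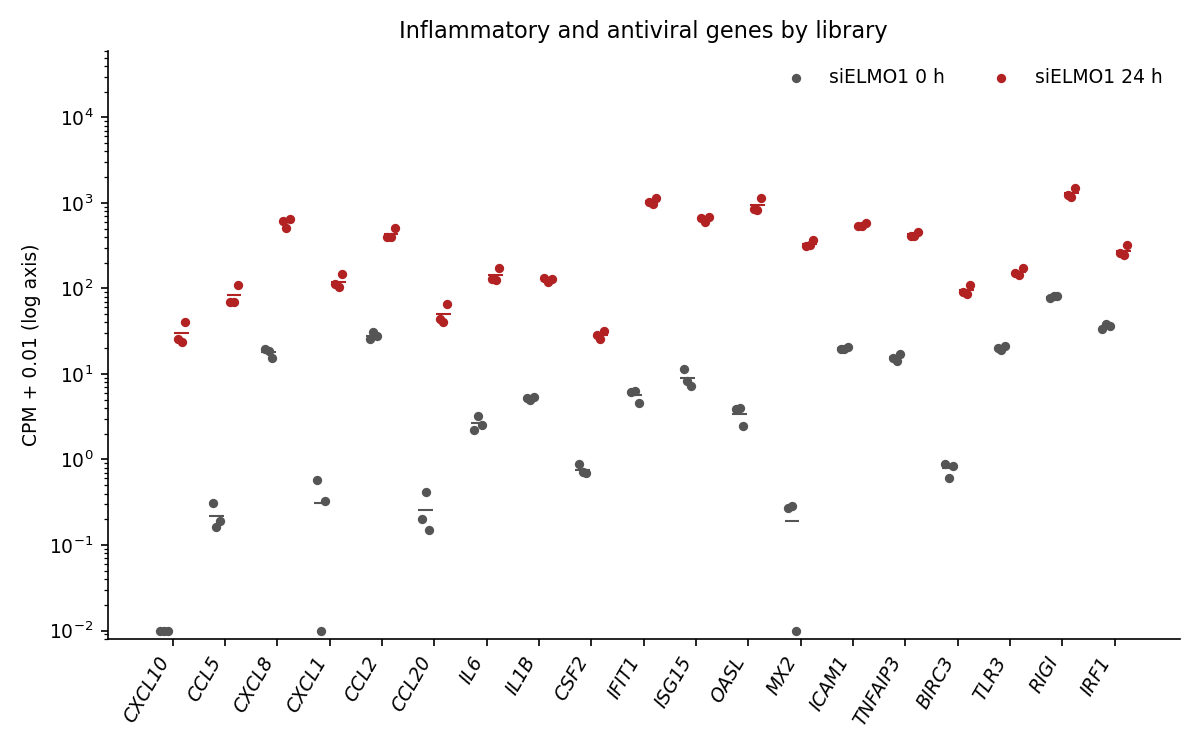
CPM plus 0.01 on a log axis for 19 inflammatory and antiviral genes in the 3 siELMO1 libraries at 0 h (grey) and the 3 at 24 h (red), each point a library and each bar the mean. In every gene the 24 h points lie above the 0 h points, from IRF1 and TLR3, which were at 18.9 CPM or more before poly(I:C), to CXCL10, which was at 0.

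Cytokines were divided. Of 17 interleukin and colony-stimulating factor genes 13 rose (median log2 of the list 2.51), CLCF1 and IL33 did not pass the test, and IL11 and IL18 fell. Of all genes 28.0% rose and 26.9% fell. IL6 went from 2.20, 3.19 and 2.54 to 130.2, 125 and 174 CPM (log2 5.79, SE 0.19, adjusted p = 2.4e-14, edgeR) and IL1B from 5.16, 4.92 and 5.33 to 132, 120.2 and 128 CPM (log2 4.62, SE 0.10, adjusted p = 2.1e-16, edgeR). CSF2, which encodes GM-CSF, rose 37.7-fold from 0.871, 0.703 and 0.679 CPM to 28.8, 25.4 and 32.0 CPM (adjusted p = 9.4e-11, edgeR). IL32 rose from below 1 CPM to 72.0, 75.7 and 80.5 CPM. IL18, which caspase-1 has to cleave before it acts, fell from 38.5, 36.2 and 37.9 to 30.2, 25.3 and 23.9 CPM (log2 −0.51, SE 0.10, adjusted p = 3.7e-04, edgeR).

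Among the TNF superfamily ligands 10 of 12 rose and none fell (9 without siELMO1 0 h replicate 1), beside 28.0% and 26.9% of all genes. TNF was at 0 at 0 h and 5.99, 6.11 and 11.0 CPM at 24 h, at least 43.8-fold higher, and TNFSF13B, the B cell survival factor BAFF, was at 0 and then at 17.6, 15.6 and 16.7 CPM, at least 94.4-fold higher. TNFSF10, which encodes the death ligand TRAIL, was at 0.0953, 0.100 and 0 CPM at 0 h and 49.5, 47.3 and 83.2 CPM at 24 h. TNFSF15, an endothelial ligand of death receptor 3, was high already and went from 62.0, 57.5 and 70.9 to 179, 175 and 218 CPM (log2 1.59, SE 0.28, adjusted p = 1.4e-04, edgeR).

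All 19 genes of NF-κB and its feedback inhibitors rose, against 28.0% of all genes, with a median log2 fold change of 2.57. NFKBIA, the inhibitor that holds NF-κB in the cytosol, went from 55.8, 54.4 and 59.0 to 409, 411 and 476 CPM (log2 2.94, SE 0.08, adjusted p = 1.1e-15, edgeR). TNFAIP3 (A20), an enzyme that edits ubiquitin chains and ends the signal, went from 15.2, 14.3 and 17.3 to 413, 410.2 and 457 CPM (log2 4.77, SE 0.09, adjusted p = 2.2e-17, edgeR). BIRC3, a ubiquitin ligase of the TNF receptor complex, rose 119-fold to 91.6, 85.1 and 109 CPM (adjusted p = 5.6e-16, edgeR) and TRAF1 41.3-fold to 55.6, 53.0 and 78.7 CPM (adjusted p = 2.3e-14, edgeR). The κB core stood in 6 of 17 promoter windows of this list (35.3%) and in 3 of 6 CXC chemokine windows, against 8.87% of the genes that rose over 2-fold, 15.2% of those over 8-fold and 4.77% of all tested.

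ICAM1, the adhesion molecule on which leukocytes come to rest, went from 19.7, 19.5 and 20.7 to 541, 534 and 579.7 CPM (log2 4.79, SE 0.08, adjusted p = 9.4e-18, edgeR). It was the largest rise in a list of 8 leukocyte adhesion genes in which 4 rose and JAM3 fell, beside 28.0% and 26.9% of all genes. All 10 inflammatory enzymes tested, of 13 listed, rose (median log2 3.20), 9 of them without siELMO1 0 h replicate 1. PTGS2 (COX-2) rose only 1.64-fold, from 77.6, 77.9 and 65.7 to 110.1, 101 and 153 CPM (adjusted p = 8.7e-05, edgeR). ACOD1, which makes itaconate, was at 0 and then at 9.22, 8.95 and 13.4 CPM, at least 59.7-fold higher, and IDO1, which breaks down tryptophan, was at 0 and then at 1.81, 2.49 and 3.48 CPM, at least 14.7-fold higher. Of 13 complement genes 7 rose and CFD fell (8 and none without siELMO1 0 h replicate 1), beside 28.0% and 26.9% of all genes. C3, the central component, went from 0.381, 0.377 and 0.439 to 81.1, 80.0 and 73.0 CPM (log2 7.61, SE 0.17, adjusted p = 2.1e-16, edgeR). PTX3, a soluble pattern recognition protein, went from 789, 699 and 679 to 2986, 2747 and 2798 CPM (log2 1.98, SE 0.06, adjusted p = 1.0e-14, edgeR). AIM2, a DNA sensor of an inflammasome, was at 0 and then at 8.89, 8.35 and 9.75 CPM, at least 51.1-fold higher.

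Genes of programmed cell death moved in both directions, beside 28.0% of all genes higher and 26.9% lower by adjusted p alone. Of 23 caspase and death receptor genes 16 rose, and CASP6, TNFRSF1A and TNFRSF10D fell. CASP1, the caspase of inflammasomes, went from 14.9, 15.5 and 13.7 to 112, 114 and 113 CPM (log2 2.94, SE 0.08, adjusted p = 4.8e-15, edgeR). CASP8 rose 1.54-fold, FAS 1.89-fold and the TRAIL receptor TNFRSF10B 1.73-fold (adjusted p of 1.6e-07, 9.3e-09 and 3.2e-08, edgeR), while TNFRSF10D, a decoy receptor that binds TRAIL without a full death domain, fell from 96.1, 93.3 and 106 to 13.6, 11.5 and 14.9 CPM. That was the second of the 10 largest falls among protein-coding genes of at least 1 CPM (log2 −2.89, SE 0.09, adjusted p = 1.3e-14, edgeR). Of 14 BCL2 family genes 8 rose and the BH3-only gene BCL2L11 (BIM) fell, from 18.4, 16.8 and 17.7 to 9.12, 8.75 and 11.0 CPM. PMAIP1 (NOXA), which promotes death, rose 8.43-fold to 201, 188 and 257 CPM (adjusted p = 1.6e-13, edgeR). BCL2A1 rose 20.9-fold, MCL1 2.09-fold and BCL2L1 1.41-fold (adjusted p of 6.0e-11, 9.8e-13 and 5.7e-09, edgeR), and all of these oppose death.

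Transcripts of CFLAR and ADAR, genes whose protein forms differ in function, were read from the matrix of estimated counts per transcript. CFLAR encodes c-FLIP, which blocks caspase-8. The gene rose 4.81-fold, from 34.3, 31.3 and 35.9 to 145, 147 and 197 CPM (adjusted p = 7.9e-12, edgeR). The transcripts of the long form of 480 residues took 70.7%, 73.3% and 66.3% of its counts at 0 h and 50.3%, 51.0% and 47.1% at 24 h. The 221-residue short form took 10.4%, 7.55% and 10.6% and then 16.3%, 15.5% and 17.4%, and a 250-residue form 11.6%, 13.5% and 15.8% and then 25.7%, 24.3% and 26.0%. None of these 3 shares overlapped between the times. With 3 libraries a side an exact permutation test of a share cannot go below p = 0.10 (two-sided), and the shares are given without a test. For ADAR, which edits adenosine in double-stranded RNA, a 1200-residue form took 35.9%, 26.9% and 18.6% at 0 h and 45.8%, 66.8% and 52.1% at 24 h. Its 931-residue forms took 8.08%, 33.3% and 37.0% and then 9.81%, 20.8% and 19.3%, which overlapped. A 1226-residue form took 0.0918%, 1.92% and 0.546% and then 0.261%, 3.32% and 0.0678%. The division of reads among transcripts that share exons is an estimate, and replicates differed widely in ADAR, the 912-residue form taking 7.14%, 0.286% and 2.30% in the 24 h libraries.

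**Figure D3:**
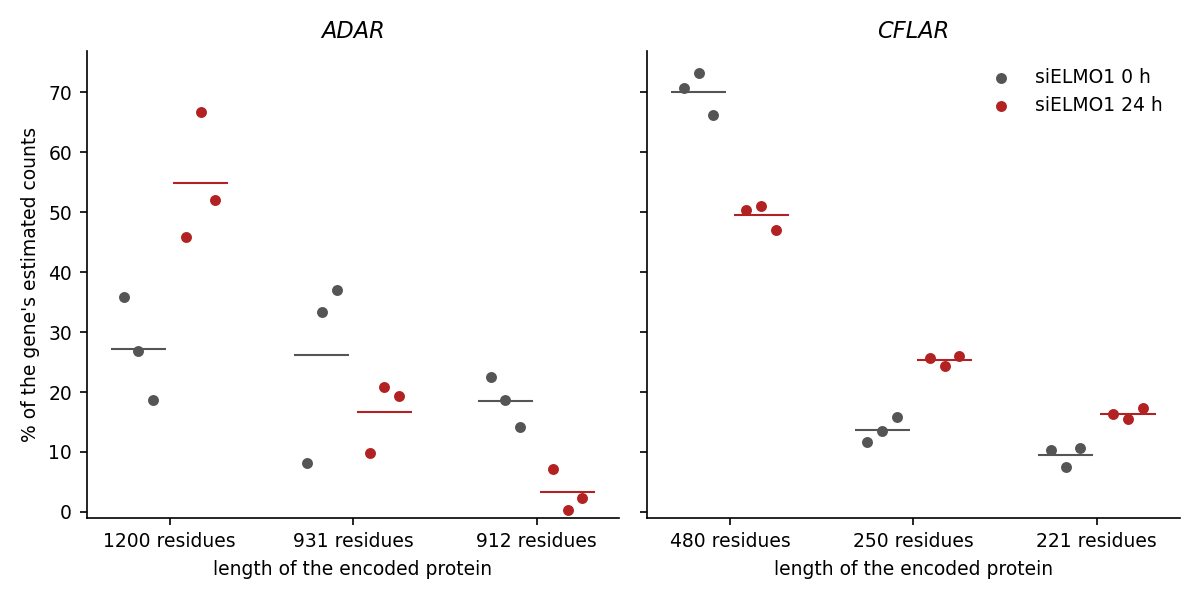
Share of the estimated counts of ADAR (left) and CFLAR (right), in percent, that fell on transcripts encoding proteins of the lengths given, the 3 lengths of at least 100 residues with the largest mean share, in the 3 siELMO1 libraries at 0 h (grey) and the 3 at 24 h (red), with bars at the means. The long CFLAR form of 480 residues lies at 66.3% or more at 0 h and at 51.0% or less at 24 h, and the 1200-residue ADAR form is higher at 24 h in every library.

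Genes of DNA replication and mitosis rose in siELMO1 cells after poly(I:C), while their medians were negative in both controls. By adjusted p alone 28.0% of all genes rose and 26.9% fell. Of 47 DNA replication genes 45 were higher and 2 lower at 24 h, with a median log2 fold change of 0.87, against −0.47 in siNT and −0.32 in Mock. Of 53 mitosis genes 51 were higher and none lower (median 0.88, against −0.89 in siNT and −0.52 in Mock), and NUSAP1 and SMC2 did not pass the test. In the lists that the Seurat package gives for cycling cells, 39 of 43 S phase genes were higher and 0 lower (median 0.82). Of 54 G2/M genes 47 were higher and 4 lower (median 0.80). The rise was from a low level. Summed over the DNA replication genes, siELMO1 libraries were at 1439 to 1538 CPM at 0 h and 2442 to 2649 CPM at 24 h. The siNT libraries were at 3530.3 to 3593 CPM and then at 2609 to 2871 CPM, and those of Mock at 4409.7 to 4479 and then 3507 to 3762 CPM. For the mitosis genes the sums were 2028 to 2248 and 3295 to 3956 CPM in siELMO1, 6635 to 6749 and 3810.3 to 4002 CPM in siNT, and 7357 to 7624 and 4940.4 to 5519 CPM in Mock. At 24 h the siELMO1 ranges of both lists thus overlapped those of siNT and stayed below those of Mock. Without siELMO1 0 h replicate 1 the counts were 45 higher and 1 lower (median 0.94) and 51 higher and 0 lower (median 0.87).

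**Figure D4:**
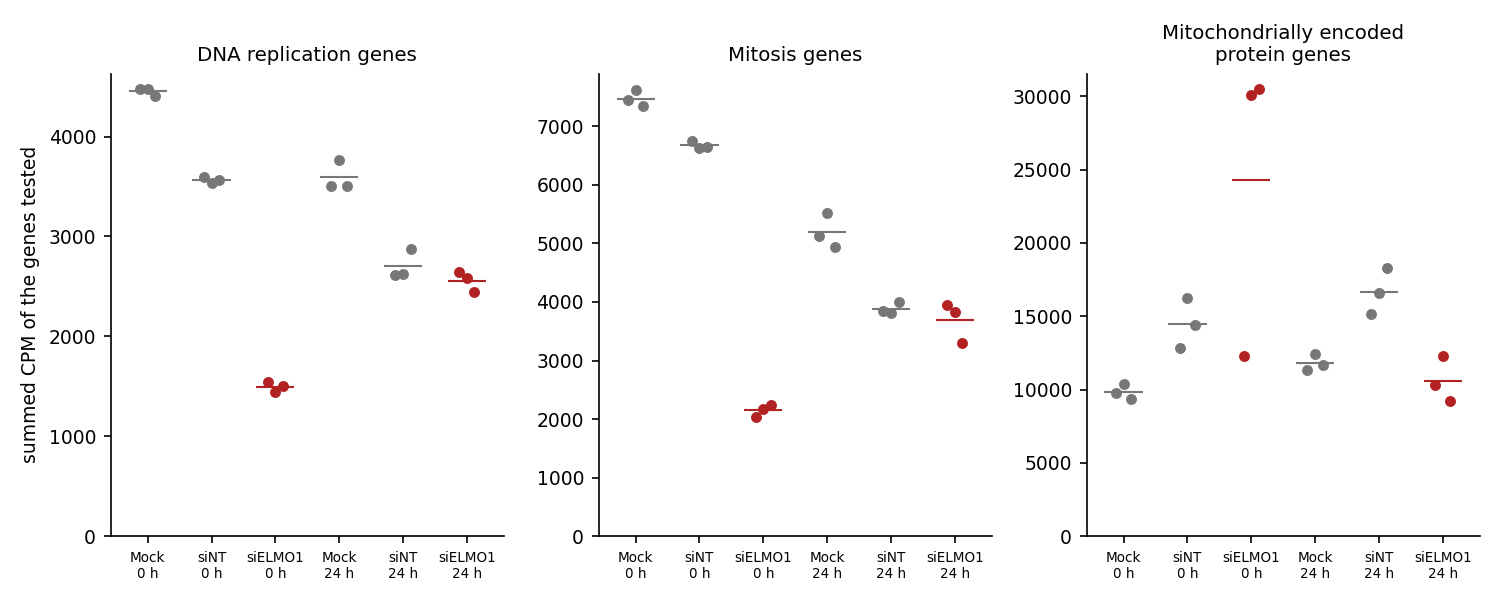
Summed CPM of the DNA replication genes (left), the mitosis genes (middle) and the genes of mitochondrially encoded proteins (right) by library in the 6 conditions, siELMO1 in red, with bars at the means. The replication and mitosis sums are higher at 24 h than at 0 h in siELMO1 and lower in Mock and siNT, and in the mitochondrial panel siELMO1 0 h replicate 1 lies at 12284 CPM, away from the other two at 30106 and 30493 CPM.

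MCM2, a subunit of the replicative helicase, went from 40.7, 36.7 and 40.1 to 73.7, 73.5 and 66.0 CPM (log2 0.86, SE 0.07, adjusted p = 5.2e-09, edgeR), and PCNA, the sliding clamp, from 176, 148 and 146 to 290.3, 263 and 273 CPM. E2F1, a transcription factor of the S phase genes, rose 1.71-fold (adjusted p = 1.1e-05, edgeR). The largest rises of the lists were those of POLA2, a subunit of the primase complex, from 6.78, 8.19 and 10.4 to 29.7, 39.7 and 38.5 CPM, and of PKMYT1, which inhibits CDK1, from 6.45, 4.45 and 3.42 to 20.0, 17.2 and 17.6 CPM. CDK1, the kinase that starts mitosis, went from 24.4, 23.4 and 22.3 to 63.3, 57.4 and 50.3 CPM (log2 1.29, SE 0.07, adjusted p = 3.4e-11, edgeR). It fell in siNT (log2 −1.13, adjusted p = 1.6e-10, edgeR) and in Mock (log2 −0.46, adjusted p = 8.6e-06, edgeR). MKI67, the proliferation marker, rose 2.04-fold, CCNB1 1.90-fold and PLK1 1.66-fold (adjusted p of 1.6e-06, 1.8e-07 and 2.2e-05, edgeR). In the replication and mitosis lists the exceptions were E2F7, a repressor, which fell from 209, 222 and 219.7 to 169, 174 and 144 CPM, and CCNE1, which fell 1.20-fold (adjusted p = 0.027, edgeR). CCNE1 did not pass with no filter on low counts (adjusted p = 0.13, edgeR) or without any of 4 of the 6 libraries. The E2F core stood in 15 of 39 promoter windows of the replication list (38.5%) and 3 of 44 of the mitosis list (6.82%), beside 3.12% of all tested genes, 2.58% of the genes that rose over 2-fold and 0 of 164 genes that rose over 8-fold.

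Regulators of the G1 phase moved less. Of 18 cyclins, kinases and inhibitors 9 rose and 2 fell, beside 28.0% and 26.9% of all genes. CCND1 rose 1.29-fold and CDK2 1.84-fold (adjusted p of 1.2e-06 and 1.0e-09, edgeR). The inhibitor CDKN1A (p21) rose from 203, 196 and 184 to 277, 263 and 269 CPM (log2 0.47, SE 0.04, adjusted p = 2.9e-08, edgeR), and CDKN1B (p27) fell from 48.9, 44.2 and 45.7 to 38.6, 36.3 and 36.7 CPM (log2 −0.32, SE 0.05, adjusted p = 4.2e-05, edgeR). MDM2, a ubiquitin ligase, rose 1.69-fold (adjusted p = 1.4e-10, edgeR), BBC3 (PUMA) 2.71-fold (adjusted p = 1.2e-07, edgeR), and ZMAT3 fell from 224, 229.9 and 229 to 34.4, 37.0 and 39.0 CPM (log2 −2.63, SE 0.07, adjusted p = 1.7e-15, edgeR). Of 21 replication-dependent histone genes 10 rose and 1 fell, beside 28.0% and 26.9% of all genes. Their transcripts mostly lack the poly(A) tail that the library kit selects, and near-identical copies divide reads.

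FAM220A had the largest fitted fall, with 0.585, 3.89 and 3.44 CPM at 0 h and 0.121, 0.124 and 0.0800 CPM at 24 h (log2 −4.55, SE 1.63, adjusted p = 0.026, edgeR), but SAGSIN1 overlaps it on the same strand and the call was lost under limma-voom (adjusted p = 0.068) and without any of 5 of the 6 libraries. FOXS1, a forkhead factor, fell from 5.93, 5.80 and 5.69 to 1.06, 1.06 and 0.620 CPM, MAP2K6, a kinase of the p38 pathway, from 13.1, 13.8 and 12.6 to 1.61, 2.16 and 2.78 CPM, and NOG, which binds and blocks BMPs, from 5.65, 4.92 and 3.42 to 0.834, 1.24 and 0.340 CPM. TET1, which oxidises methylcytosine, fell 5.30-fold and DEPP1 4.99-fold (adjusted p of 2.7e-05 and 4.7e-08, edgeR). In the list of TGF-β, BMP and Notch genes 13 rose and 13 fell of 33, beside 28.0% and 26.9% of all genes. The inhibitory SMADs fell: SMAD6 from 18.7, 16.4 and 15.1 to 4.02, 4.26 and 3.98 CPM (log2 −2.04, SE 0.10, adjusted p = 7.9e-12, edgeR) and SMAD7 from 22.1, 21.3 and 17.7 to 4.90, 5.69 and 6.70 CPM (log2 −1.82, SE 0.12, adjusted p = 9.2e-10, edgeR).

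Of 24 endothelial identity genes 7 were higher and 9 lower, beside 28.0% and 26.9% of all genes. KLF2 and KLF4, factors that flow induces in endothelium, moved apart: KLF4 rose from 10.0, 9.12 and 7.71 to 91.5, 88.2 and 124 CPM (log2 3.49, SE 0.19, adjusted p = 3.2e-11, edgeR), and KLF2 fell from 95.9, 89.0 and 91.8 to 45.1, 46.0 and 45.8 CPM (log2 −1.02, SE 0.07, adjusted p = 2.3e-09, edgeR). CD34 rose 3.74-fold and SOX18, a factor of vessel development, fell 2.67-fold (adjusted p of 2.0e-10 and 9.6e-08, edgeR). CDH5 (VE-cadherin), the junction protein, was at 758, 771 and 801 CPM before and 867, 901 and 979.6 CPM after (log2 0.24, SE 0.07, adjusted p = 0.0071, edgeR). For 3 genes replicate 3 at 24 h lay above the other libraries. PECAM1 was at 139.9, 159 and 265 CPM at 24 h against 204, 212 and 257 CPM at 0 h (log2 −0.26, adjusted p = 0.35, edgeR), and without that library it fell (log2 −0.59, adjusted p = 0.026, edgeR). KDR, the main VEGF receptor, was at 17.4, 20.3 and 44.3 CPM against 19.3, 22.1 and 24.0 CPM (log2 0.32, adjusted p = 0.34, edgeR), and −0.21 without it (adjusted p = 0.45, edgeR). VWF, which carries factor VIII and tethers platelets, was at 18.0, 19.9 and 42.9 CPM against 13.0, 13.0 and 13.3 CPM (log2 1.04, SE 0.25, adjusted p = 0.0018, edgeR), and without it the rise was 0.53 (adjusted p = 0.014, edgeR).

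Of 16 coagulation and fibrinolysis genes 7 rose and 4 fell, beside 28.0% and 26.9% of all genes. THBD (thrombomodulin), which turns thrombin against clotting, fell from 168, 165 and 160.4 to 59.3, 58.7 and 44.5 CPM (log2 −1.60, SE 0.13, adjusted p = 1.2e-08, edgeR). F3 (tissue factor), which starts clotting, rose from 1.70, 1.63 and 1.80 to 3.70, 3.72 and 5.36 CPM, and TFPI2 rose 5.15-fold (adjusted p of 7.7e-06 and 3.7e-11, edgeR).

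In the extracellular matrix 13 of 20 collagens rose and COL4A6 fell, beside 28.0% and 26.9% of all genes. Of 26 laminins, fibronectin and matricellular genes 15 rose and 4 fell. COL4A1, a chain of basement membrane collagen that COL4A2 overlaps on the opposite strand, went from 104, 103 and 101 to 318, 306 and 339 CPM (log2 1.65, SE 0.14, adjusted p = 1.4e-08, edgeR). COL12A1 rose 6.66-fold from 3.84, 5.22 and 3.95 CPM and COL5A2 1.60-fold to 1138, 1098 and 1106 CPM (adjusted p of 5.0e-12 and 1.4e-08, edgeR). COL5A1 was at 903, 910.3 and 857 CPM and then at 1129.6, 1127 and 1014 CPM, which did not pass the test (log2 0.29, SE 0.25, adjusted p = 0.33, edgeR) but did in a fit of these 6 libraries alone (adjusted p = 0.0047, edgeR). FN1 (fibronectin) rose 2.16-fold and LAMB3, a laminin chain, 4.13-fold (adjusted p of 2.9e-10 and 1.2e-15, edgeR), while CCN5 fell from 6.52, 7.89 and 5.89 to 1.53, 1.55 and 1.24 CPM. THBS1 (thrombospondin-1) fell from 4593, 5007 and 4995 to 3889, 3857 and 4136 CPM (log2 −0.30, SE 0.12, adjusted p = 0.039, edgeR), a call that was lost under DESeq2 (adjusted p = 0.053) and without any of 4 of the 6 libraries. Among 17 integrin subunits 3 rose and 6 fell, beside 28.0% and 26.9% of all genes. ITGA1 rose 2.79-fold (adjusted p = 5.5e-09, edgeR), ITGB3, part of the vitronectin receptor, fell from 283, 265 and 296 to 117, 118 and 126 CPM (log2 −1.22, SE 0.08, adjusted p = 7.7e-10, edgeR), and ITGB4 fell from 40.5, 43.0 and 50.2 to 10.8, 12.3 and 24.9 CPM. Of 14 MMP and TIMP genes 3 rose and 5 fell, beside 28.0% and 26.9% of all genes. Among those that fell were the collagenase MMP1, from 1508, 1492 and 1535 to 986, 997 and 986 CPM (log2 −0.61, SE 0.07, adjusted p = 1.5e-06, edgeR), and MMP16, which fell 3.48-fold (adjusted p = 6.1e-12, edgeR).

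Messenger RNAs of the mitochondrial genome fell. Of 13 genes that encode respiratory chain proteins 12 were lower, beside 26.9% of all genes, and MT-ND1 did not pass the test. The median log2 fold change was −1.45, against 0.24 in siNT and 0.13 in Mock. In only 6 of the 13 did every 24 h library lie below every 0 h library, against 27.4% of all genes, and in the rest the times overlapped. At 0 h replicates 2 and 3 were high. Their sums were 30106 and 30493 CPM, that of replicate 1 was 12284 CPM, and the 24 h libraries were at 10275, 12311 and 9216 CPM. The Mock and siNT libraries were at 9369 to 18262 CPM, so replicate 1 lay within their range and replicates 2 and 3 above it. MT-ND4, a subunit of complex I, was at 1337, 3997 and 3909.8 CPM at 0 h and 1122, 1336 and 935 CPM at 24 h (log2 −1.45, SE 0.26, adjusted p = 1.5e-04, edgeR), so the highest 24 h library lay just below replicate 1 at 0 h. MT-ATP6, a subunit of ATP synthase, was at 1008, 2804 and 2945 CPM and then at 615, 710.2 and 505 CPM (log2 −1.88, SE 0.26, adjusted p = 6.5e-06, edgeR). Without replicate 1 at 0 h all 13 were lower, with a median of −1.81, and MT-ND4 stood at −1.81 and MT-ATP6 at −2.24 (adjusted p of 2.1e-09 and 5.8e-11, edgeR). That fit keeps only the high replicates 2 and 3 at 0 h. Leaving the mitochondrially encoded genes out of the fit gave 1157 genes that rose and 554 that fell. The part of the library that stood apart in this fall was not tested. The ribosomal RNA genes of the same genome did not follow: MT-RNR1 rose from 268, 332 and 309 to 943, 987 and 1195 CPM (log2 1.78, SE 0.12, adjusted p = 6.3e-10, edgeR), and MT-RNR2 was at 5303, 10162 and 9379 CPM before and 8165, 8880.4 and 8315 CPM after (log2 0.03, adjusted p = 0.88, edgeR). These RNAs were selected by their poly(A) tails, so their levels here depend on the tails as well.

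For the lists that follow, 28.0% of all genes rose and 26.9% fell by adjusted p alone. Of 85 cytosolic ribosomal proteins 44 fell and 5 rose (median log2 −0.15), and without siELMO1 0 h replicate 1 the counts were 40 and 17. RPL5 fell from 748, 735 and 732 to 419.7, 435 and 410.4 CPM (log2 −0.81, SE 0.06, adjusted p = 1.9e-09, edgeR). Of 31 cholesterol and fatty acid synthesis genes 20 fell and 3 rose. ACAT2 fell 1.90-fold (adjusted p = 1.7e-08, edgeR; SOD2 and TCP1 overlap it on the other strand). Heat shock genes fell in 8 and rose in 4 of 16, with HSPB1 down 1.62-fold and DNAJA1 up 1.65-fold (adjusted p of 1.4e-08 and 3.0e-08, edgeR). Among ATF4 and amino acid stress genes 13 of 23 rose and 4 fell. ATF3 rose from 9.34, 8.92 and 8.51 to 50.6, 49.2 and 61.8 CPM and WARS1, a tRNA synthetase that interferon induces, from 141, 155 and 157 to 726, 716 and 803 CPM (log2 2.59 and 2.31, adjusted p of 6.3e-14 and 1.8e-13, edgeR). Of 20 endoplasmic reticulum genes 10 rose and SEL1L fell (10 and 2 without siELMO1 0 h replicate 1). XBP1 rose 2.23-fold (adjusted p = 6.8e-12, edgeR) and the chaperone HSPA5 1.14-fold (adjusted p = 0.02, edgeR), which was lost with totals used instead of TMM factors (adjusted p = 0.096, edgeR). Of 26 NRF2 targets 7 rose and 7 fell and of 29 glycolysis and hypoxia genes 7 rose and 12 fell, beside 28.0% and 26.9% of all genes. Of 16 early transcription factors of the AP-1 and EGR kind 12 rose, and DUSP4 and FOSB fell.

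The study set siELMO1 beside siNT and Mock, and the difference between their 24 h responses was tested as an interaction in the same model. The response was higher than that of siNT in 581 genes and lower in 360 (3.83% and 2.37%, adjusted p under 0.05 and a difference over 2-fold), and by adjusted p alone in 2533 and 2700 (16.7% and 17.8%). Against Mock it was higher in 417 and lower in 185 (2.75% and 1.22%), and by adjusted p alone in 2090 and 2209 (13.8% and 14.6%). Of the 1170 genes that rose in siELMO1, 547 rose more than in siNT and 32 less by adjusted p, whereas 240 rose more than in Mock and 182 less. Of the 558 that fell, 241 fell more than in siNT and 5 less, and 66 fell more than in Mock and 55 less. Both sets were picked by their response in siELMO1, which is also part of each difference, so larger responses are favoured in these counts. Over all genes the median difference was −0.018 from each control. The response of 277 genes was higher than in both controls and that of 46 lower, and 150 of the former rose in siELMO1 and fell in both.

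Of 19 NF-κB genes 11 had a higher response than in siNT and 1 a lower one, and 8 had a lower response than in Mock and 1 a higher one. Of 38 interferon-stimulated genes 26 were higher than in siNT and 3 lower, and 15 were lower than in Mock and 3 higher. Over all genes 16.7% were higher and 17.8% lower than in siNT, and 13.8% higher and 14.6% lower than in Mock. CXCL1 rose by 8.42 on the log2 scale in siELMO1, 3.23 in siNT and 7.65 in Mock. The difference was 5.19 from siNT (SE 0.48, adjusted p = 1.8e-07, edgeR) and 0.76 from Mock (SE 0.49, adjusted p = 0.27, edgeR). CSF2 rose by 5.24 in siELMO1 and 4.13 in Mock, and its value in siNT was 0.39 (adjusted p = 0.24, edgeR). Its difference from siNT was 4.84 (SE 0.40, adjusted p = 4.8e-08, edgeR). CXCL8 lay between, 1.53 above siNT and 1.15 below Mock (SE 0.15 for both, adjusted p of 4.2e-07 and 1.9e-05, edgeR). IL6 rose by 5.79 in siELMO1, 4.96 in siNT and 8.24 in Mock, a difference of −2.45 from Mock (SE 0.27, adjusted p = 3.4e-06, edgeR), and its difference of 0.83 from siNT (adjusted p = 0.029, edgeR) was lost in 7 of the alternatives, among them the one without siELMO1 0 h replicate 1 (0.70, adjusted p = 0.081, edgeR). ICAM1 rose by 4.79, 4.45 and 6.93 in that order, so its response was 2.14 below that of Mock (SE 0.10, adjusted p = 3.5e-10, edgeR). PTGS2 rose by 0.72 in siELMO1 and by 2.57 in siNT and 3.70 in Mock, below both (differences −1.85 and −2.98, adjusted p of 5.6e-07 and 2.8e-09, edgeR). TNFSF15 was above both, by 1.27 and 1.85 (adjusted p of 0.021 and 0.0024, edgeR).

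In the DNA replication and mitosis lists the difference was general. The response was higher in siELMO1 than in siNT in 45 of 47 replication genes and 53 of 53 mitosis genes, and higher than in Mock in 45 and 53, against 16.7% and 13.8% of all genes. The G1 and histone lists were mixed. Of 18 G1 genes 9 were higher and 0 lower than in siNT, and 5 higher and 2 lower than in Mock. Of 21 replication-dependent histones 5 were higher and 4 lower than in siNT, and 0 higher and 5 lower than in Mock. Of all genes 17.8% had a lower response than in siNT and 14.6% than in Mock. For CDK1 the difference was 2.42 from siNT (SE 0.10, adjusted p = 1.7e-11, edgeR) and 1.75 from Mock (SE 0.09, adjusted p = 1.0e-09, edgeR). For PKMYT1 it was 2.50 and 2.41 (SE 0.20 for both, adjusted p of 4.3e-08 and 1.3e-07, edgeR). The response of all 13 mitochondrially encoded protein genes was lower than in both controls. The siELMO1 0 h sums of replicates 2 and 3 (30106 and 30493 CPM) lay above those of every control library. MT-ND4 differed by −1.84 from siNT and −1.71 from Mock (adjusted p of 8.0e-04 and 0.002, edgeR), or −2.20 and −2.07 without siELMO1 0 h replicate 1. In the matrix COL15A1 was among the 5 genes with the largest positive difference from Mock: it rose by 1.61 in siELMO1, fell by 0.98 in Mock, and was 2.59 above Mock and 1.84 above siNT (adjusted p of 6.3e-04 and 0.0047, edgeR). SULT1B1, a sulfotransferase, rose by 3.21 in siNT and fell by 0.48 in siELMO1, a difference of −3.69 (SE 0.17, adjusted p = 7.4e-11, edgeR).

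**Figure D5:**
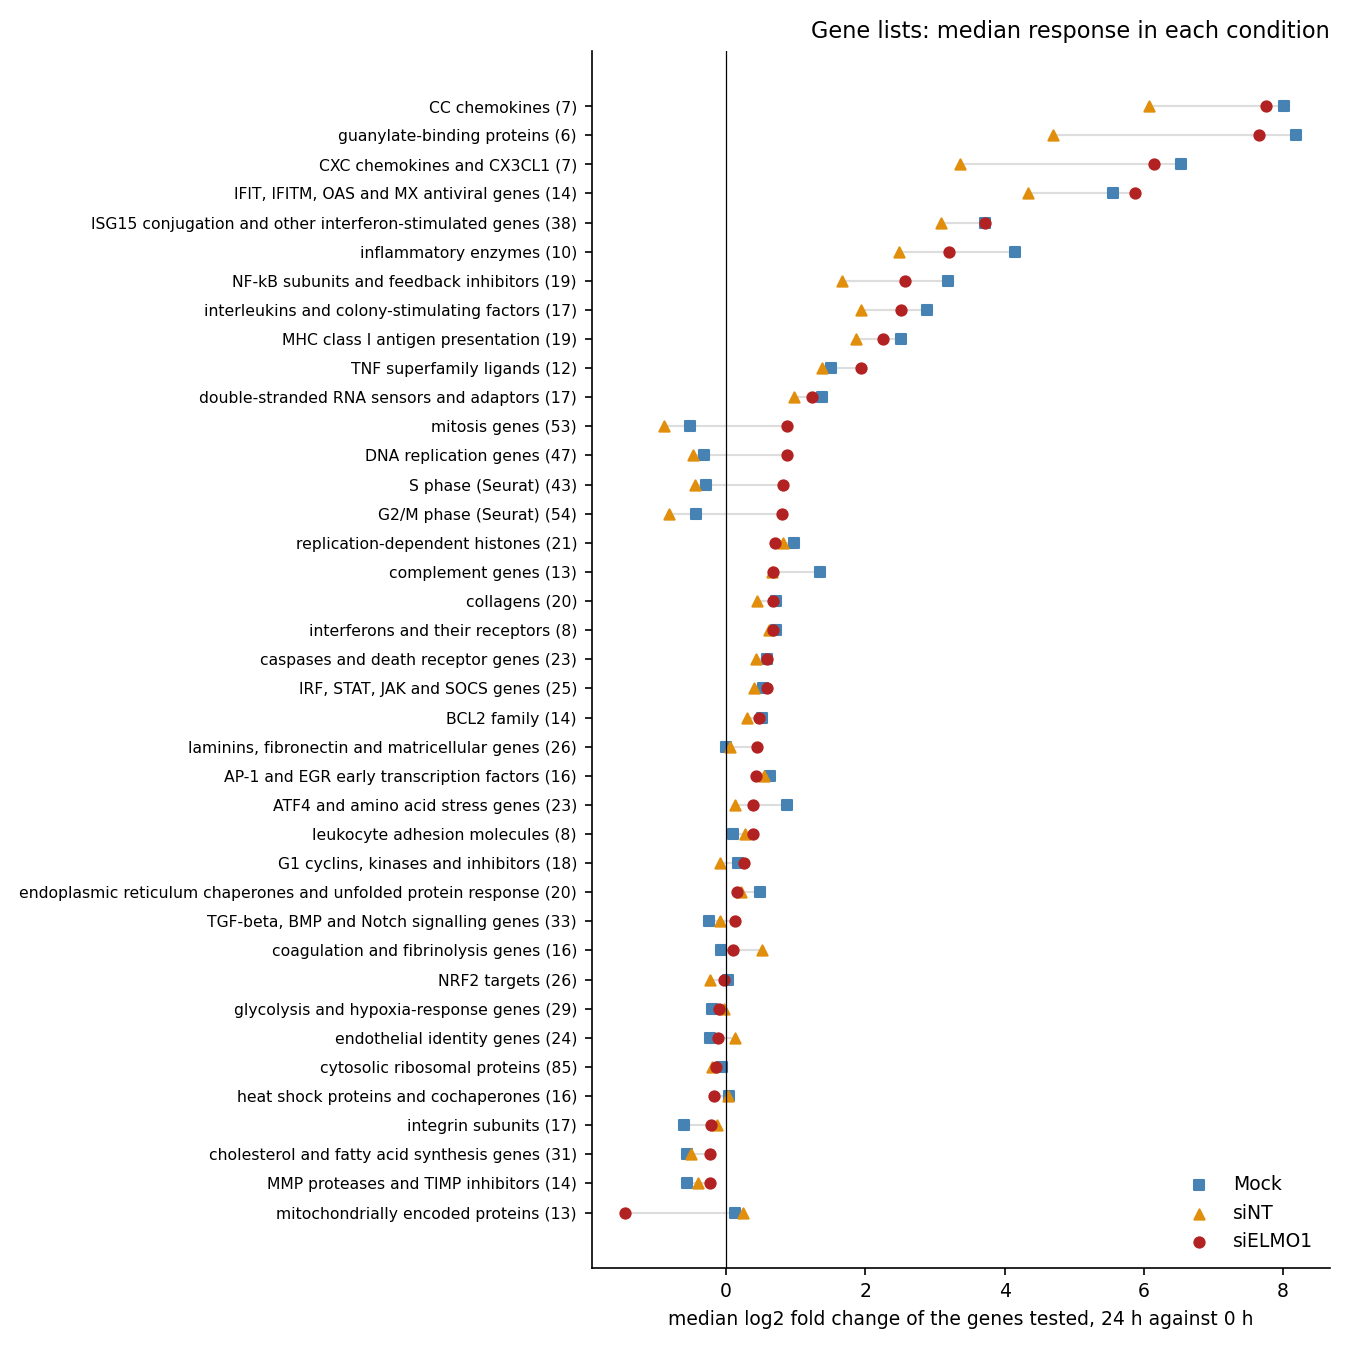
Median log2 fold change, 24 h against 0 h, of the tested genes of each list shown (number of genes in brackets) in siELMO1 (circles), siNT (triangles) and Mock (squares); medians of lists with genes at 0 include fitted values. For the mitosis and DNA replication lists siELMO1 lies at 0.88 and 0.87 and both controls lie below 0, and for the mitochondrially encoded proteins siELMO1 lies at −1.45 and both controls above 0.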

How the data were processed

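RNA was measured in 18 libraries of EA.hy926 cells, with 3 biological replicates in each of 6 conditions per the study's methods, and 6 libraries made up the comparison. The authors made libraries with a stranded mRNA kit, aligned the paired reads to GRCh38 with STAR, assembled them with StringTie on the GENCODE annotation and deposited estimated counts per gene and per transcript, whose strand setting in counting was not given in the sources used here. Opposite-strand overlaps and near-identical copies are therefore less certain, and 1 read pair stands for more than 1 estimated count: over genes and the 6 libraries 8381 values were at 3 counts and 3342 at 4, so a pair was taken as up to 3 counts. Lower bounds on folds use 9 counts, and counting intervals use counts divided by 3.

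Genes with at least 100 counts in all and 1 CPM in a library were fitted over all 18 libraries with edgeR 4.0.16 in R 4.3.3 (TMM factors, quasi-likelihood, Benjamini-Hochberg, two-sided). A gene near 0 at 0 h could pass this filter only through libraries in which it was higher. Counts of list members cover only the genes that passed. Calls over all genes needed an adjusted p under 0.05 and a fold over 2, and those in lists and of single genes the p alone. The fit was tested on simulated data first. Floors and counting intervals cover counting error only. Alternatives used DESeq2 1.42.0, limma-voom (limma 3.58.1), other scalings and filters, fewer libraries and a replicate block. Phase lists came from Seurat 5.3.0. Of 62754 gene IDs 54 were not in the annotation used here, and 24784 genes were at 0 in all libraries.

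Genes named were ELMO1, marked list members, the 10 largest rises and falls, the 5 largest gains and losses in CPM per kilobase of exon, the 2 largest rises and falls of each list and the 5 largest differences from each control in each direction. Apart from ELMO1 and marked genes they had to be protein-coding, to pass the threshold, to average at least 1 CPM and, between the times, not to overlap. Members, lists, alternatives and tests were chosen with earlier results of these data known. MT-RNR1, MT-RNR2, ADAR transcripts, list members given only as called or not called, and the genes under other observations fall outside this rule and were chosen after their values were seen. Some genes and 1 list that the rule covers are not reported here.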

Additional observations from a re-analysis of the deposited data

Results flagged for a closer look

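The 24 h response of siELMO1 cells differed from that of a control by the test of the difference itself (the interaction in the edgeR model, adjusted p under 0.05) in many genes. It was higher than in siNT in 581 genes and lower in 360, and higher than in Mock in 417 and lower in 185. Values below are differences of log2 fold changes, positive where the response of siELMO1 was the higher, for genes named in the report with 3 libraries in each of the groups. Responses that share their siELMO1 libraries are not independent of each other.

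Of 17 sensors and adaptors 5 responded more than in siNT and 2 less by adjusted p alone, beside 16.7% and 17.8% of all genes. Named sensors and interferon-induced genes that passed stood above siNT by TLR3 0.63, IFIH1 0.90, IRF1 0.93, SOCS1 2.18, OASL 2.42 and ISG15 1.10. RIGI responded less than in Mock, by −0.74. Among chemokines and cytokines the differences from siNT were CXCL1 5.19, CXCL2 2.78, CXCL8 1.53, CCL2 2.00, CCL20 3.37, IL6 0.83, CSF2 4.84 and TNFSF15 1.27. Against Mock they were CXCL8 −1.15, IL6 −2.45, IL1B −0.88 and TNFSF15 1.85. Of NF-κB and adhesion genes TNFAIP3 stood at 1.42 and BIRC3 at 2.27 from siNT, and TRAF1 at −2.01 and ICAM1 at −2.14 from Mock. PTGS2 was below both, by −1.85 from siNT and −2.98 from Mock.

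Named genes of DNA replication and mitosis stood above siNT by CDK1 2.42, CCNB1 1.95, MCM2 1.44, POLA2 2.14 and PKMYT1 2.50. Above Mock the values were CDK1 1.75, CCNB1 1.40, MCM2 1.19 and PKMYT1 2.41. The mitochondrially encoded genes were below both, MT-ATP6 by −1.76 and −1.91 and MT-ND4 by −1.84 and −1.71 from siNT and Mock, and without siELMO1 0 h replicate 1 MT-ATP6 by −2.11 and −2.27 and MT-ND4 by −2.20 and −2.07. Of genes that fell in siELMO1, TNFRSF10D differed by −1.05, ZMAT3 by −1.18, THBD by −1.60 and ITGB3 by −1.53 from siNT, and MAP2K6 by 1.59, SMAD6 by 1.17 and NR4A2 by −2.71 from Mock. KLF4 lay between the controls, 1.70 from siNT and −1.35 from Mock. WARS1 and XBP1 rose less than in Mock (−1.18 and −0.74). COL15A1 stood 1.84 above siNT and 2.59 above Mock. SULT1B1 differed by −3.69 from siNT. NEXN, an actin-binding protein, differed by −2.91 from siNT and −1.54 from Mock.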

How the results depend on the processing

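The counts over all genes kept their size, within 1.5 times of the value reported, under every one of the 27 settings in which they were computed. Genes that rose numbered 1170 and from 1090 (library totals in place of TMM) to 1467 (filterByExpr) under the other tools, scalings and filters, and from 1136 to 1261 with a library left out. Genes that fell numbered 558, from 517 to 653 and from 505 to 589. The response was higher than in siNT in 541 to 685 genes and lower in 303 to 434, and higher than in Mock in 385 to 505 and lower in 149 to 229, over all of the settings run. Between 1086 and 1167 of the 1170 were called again under each alternative, and between 455 and 558 of the 558. The ELMO1 difference between the times ran from −0.61 to −0.08 with a library left out. The KDR difference (0.32) ran from −0.21, without siELMO1 24 h replicate 3, to 0.57, and the cause was not tested. Of 189 single values, 3105 recomputed values gave the same direction and side of the threshold in 3062, lost it in 31, gained it in 11 and turned in 1 (KDR). Of 1288 counts of list members 1247 stayed within 1.5 times.

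Replicate numbers are shared by the times. The correlations of deviations between same-numbered libraries were 0.114, 0.169 and 0.051, and those between different-numbered libraries ran from −0.166 to 0.052. The same-numbered values were mostly the higher, but all were small, and the numbers were not taken to pair the samples. With the replicate block 1174 genes rose and 560 fell. Medians of all genes shifted by −0.06 with library totals, and the share of rises among calls went from 67.7% to 62.5%. At 40.4 M counts, the smallest library, levels under 0.226 CPM could not be told from 0.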

Other observations

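Genes outside the lists, chosen after their values were seen, also moved in siELMO1 cells. The growth factors VEGFC, which acts on lymphatic endothelium, and FGF2 rose: VEGFC went from 27.5, 26.4 and 24.5 to 173, 168 and 176 CPM (log2 2.72, SE 0.06, adjusted p = 8.3e-17, edgeR), and FGF2 from 137, 122 and 118 to 861, 774 and 857 CPM (log2 2.73, SE 0.07, adjusted p = 8.4e-16, edgeR). FST (follistatin), which binds activin, rose from 13.6, 12.3 and 13.7 to 91.3, 81.1 and 73.1 CPM. The ligands of the immune checkpoint receptor PD-1 rose too, CD274 from 6.21, 7.16 and 7.27 to 65.6, 62.8 and 77.0 CPM and PDCD1LG2 from 26.2, 24.8 and 25.5 to 107, 98.0 and 99.0 CPM. CTSS, a lysosomal protease of antigen processing, went from 17.7, 16.6 and 16.7 to 352, 345 and 444 CPM (log2 4.48, SE 0.12, adjusted p = 2.1e-15, edgeR). ZC3H12A, an RNase that degrades cytokine transcripts, went from 2.91, 4.04 and 2.90 to 48.1, 49.7 and 60.9 CPM.

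Among falls, CERK (ceramide kinase) went from 147, 132 and 128 to 27.8, 29.0 and 31.0 CPM (log2 −2.22, SE 0.07, adjusted p = 3.7e-14, edgeR). The kinase gene PRKCA went from 359, 376 and 388 to 112, 121 and 94.7 CPM, the phosphodiesterase gene PDE3A from 63.7, 65.3 and 68.3 to 16.3, 17.1 and 21.3 CPM and the scaffold gene AKAP12 from 392, 491 and 495 to 129, 135 and 124 CPM. EIF4B, a translation initiation factor, fell from 1124, 1293 and 1349 to 491, 504 and 435 CPM (log2 −1.40, SE 0.09, adjusted p = 7.3e-10, edgeR). Of the lncRNAs, BISPR, which MVB12A overlaps on the same strand, went from 0.327, 0.377 and 0.140 to 30.2, 30.3 and 35.6 CPM, NAV2-AS6 from 3.06, 2.34 and 3.79 to 32.0, 34.4 and 37.3 CPM, and DANCR from 33.2, 31.4 and 29.3 to 11.7, 13.6 and 11.2 CPM. In each of these genes the libraries of the times did not overlap, which also held for 28.7% of all genes upward and 27.4% downward.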
